A study of Mus musculus with 4 samples.

Results

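The noncoding RNA genes of mouse colon epithelium described here are the genes for which every listed transcript carries a noncoding RefSeq accession (NR_ or XR_), with at least one NR_ accession and with ribosomal RNA left out. This rule gave 1779 of the 25796 genes of the expression table, and each gene is represented by its most abundant transcript over the 4 libraries. By RefSeq type they were 1369 lncRNA genes, 194 transcribed pseudogenes, 132 miRNA hairpins, 51 snoRNAs, 9 snRNAs, 8 antisense RNAs, 6 guide RNAs, and 10 genes of other types. The name was only a Gm or Rik identifier for 1195 of the 1779. Epithelial cells were shaken off the mouse colon in a buffer with EDTA, DTT and a ROCK inhibitor, and total RNA was taken from the pellet. The libraries are the unenriched inputs of an m6A immunoprecipitation experiment. There were 2 libraries labelled WT and 2 labelled Ythdf1 KO, a label that stands for loss of the gene for an m6A reader protein. For strain, age, sex and the construction of the deletion, details were not given in the sources used here. Nothing in the labels states that the 2 libraries of a label come from different mice, so each p-value rests on the spread between these samples, possibly a technical one. The labels set up the question of which epithelial RNAs differ in level where the m6A reader is labelled as lost.

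The label was not borne out by the Ythdf1 level, which was 1088 and 775 in the WT libraries and 1752 and 1737 in those labelled Ythdf1 KO, so the groups are called by their labels throughout. Each value is a read count scaled by its library's size factor, called a normalised read count below. Depth was 21686140 to 30951138 recovered reads per library over the most abundant transcripts. All 14 colon epithelial markers were present in every library. The 9 leukocyte markers summed to 1417 and 1000 in the WT libraries and to 750 and 660 in those labelled Ythdf1 KO, with 2, 0, 3 and 1 of them at 0. The 10 markers of stroma, muscle and vessels, none at 0, summed to 1471 and 3411 against 1700 and 1095. Rank correlation over the 1779 noncoding genes was 0.364 to 0.427 between libraries, against 0.809 to 0.833 over all genes. The pair labelled Ythdf1 KO was the highest in both, at 0.427 and 0.833. The WT pair, at 0.38 and 0.813, lay below WT 2 with Ythdf1 KO 2, at 0.425 and 0.83. It also lay below WT 1 with Ythdf1 KO 2 (0.417 and 0.822) and WT 2 with Ythdf1 KO 1 (0.39 and 0.82). Only WT 1 with Ythdf1 KO 1 was lower, at 0.364 and 0.809.

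Noncoding RNAs fall into families with distinct work. Small structured RNAs such as 7SK, U1 and the RNAs of RNase P and RNase MRP act inside stable protein complexes that control transcription, splicing and RNA processing. SnoRNAs guide chemical modification of ribosomal RNA and are mostly cut from introns of host genes, some of which make no protein. Long noncoding RNAs include scaffolds of nuclear bodies and regulators of imprinted genes and of the X chromosome. In bulk RNA, fewer cells of a type and less RNA per cell cannot be told apart.

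The start regions of the snoRNA host genes are shown because many genes of this family share a run of pyrimidines at the transcription start with the genes of the translation machinery. The 60 bases run from 30 before to 30 after the annotated start (RefSeq, GRCm38.p6, strand of the gene), and capitals mark a run of C or T with at least 6 bases inside the window from 5 before to 15 after it.
Gas5, chr1:161035136-161035195, plus strand: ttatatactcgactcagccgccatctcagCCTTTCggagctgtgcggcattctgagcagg
Snhg1, chr19:8723457-8723516, plus strand: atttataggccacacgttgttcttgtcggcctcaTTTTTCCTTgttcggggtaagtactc
Snhg5, chr9:88522868-88522927, minus strand: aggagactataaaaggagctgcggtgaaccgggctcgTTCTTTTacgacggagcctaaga
Snhg8, chr3:123508307-123508366, minus strand: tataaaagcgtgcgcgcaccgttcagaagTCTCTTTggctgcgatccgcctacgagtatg
Snhg12, chr4:132308648-132308707, plus strand: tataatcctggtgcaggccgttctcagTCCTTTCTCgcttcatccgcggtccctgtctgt
Of the 13 listed snoRNA hosts with a promoter in the RefSeq table, 8 held such a run, against 17.6% of all 32851 promoters of the table. The letters TATAA, searched on the gene's own strand from 40 to 15 bases before the start, stood in 4 of the 13, among them Snhg5, Snhg8 and Snhg12, against 3.56% of all promoters. A match describes the letters and does not show that a factor binds.

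The miRNA genes counted here are hairpin transcripts in total RNA, and their counts are not levels of the mature miRNA. Of the 132, 122 matched a RefSeq miRNA. The mature arms of the hairpins that the results below turn on are printed with the seed, bases 2 to 8, in capitals (GRCm38.p6).
miR-196b-5p: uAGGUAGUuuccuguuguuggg
miR-196a-5p: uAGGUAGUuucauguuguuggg
miR-27a-3p: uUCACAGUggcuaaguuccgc
miR-24-3p: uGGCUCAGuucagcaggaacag
miR-126a-3p: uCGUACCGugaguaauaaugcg
The miR-196a and miR-196b arms share 1 seed, and both genes lie in Hox clusters. The miR-27a and miR-24-3p arms come from hairpins of a single cluster on chromosome 8 and have different seeds.

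A few structured RNAs and nuclear lncRNAs made up most of the noncoding signal. Noncoding genes took 5.06% to 5.66% of the reads counted on most abundant transcripts. Within that share, Rn7sk, Malat1, Rmrp, Rpph1 and Neat1 together took 72.9% and 72.4% in the WT libraries and 77.3% and 77.2% in those labelled Ythdf1 KO. Rn7sk, the 7SK RNA that holds the elongation factor P-TEFb inactive, stood at 417646 and 406981 in the WT libraries and 443000 and 388935 in those labelled Ythdf1 KO. Its groups overlapped, with a log2 difference (labelled Ythdf1 KO minus WT, on log2 of the value + 1, as in all fits below) of 0.01 ± 0.08 (SE). Rmrp, the RNA of RNase MRP, which processes ribosomal RNA, was at 153293 and 157858 against 177715 and 147018 (log2 difference 0.06 ± 0.10). Rpph1, the RNA of RNase P, which trims tRNA precursors, was at 151763 and 122993 against 158446 and 143091 (0.14 ± 0.12). For both RNAs the groups overlapped, and for Rn7sk, Rmrp and Rpph1 the sign of the difference turned with 1 library left out, for Rmrp also after quantile normalization. Near-identical copies of these RNAs exist in the genome, and the assignment of reads shared between copies was not given in the sources used here.

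Of the nuclear body RNAs, Malat1, which collects in nuclear speckles, was at 197420 and 197788 in the WT libraries and 209135 and 236755 in those labelled Ythdf1 KO. Both libraries labelled Ythdf1 KO lay above both WT libraries, by a log2 difference of 0.17 ± 0.08 (limma-trend, unadjusted p = 0.0733, adjusted p = 0.759). The difference was 0.082 without Ythdf1 KO 2, 0.26 without Ythdf1 KO 1 and 0.072 after quantile normalization. Neat1, the scaffold of paraspeckles, lies beside Malat1 on chromosome 19 and was at 88906 and 70676 against 87857 and 84361, with overlapping groups (log2 difference 0.12 ± 0.12, whose sign turned without WT 2). Firre, an X-linked nuclear RNA, was at 2742 and 2758 against 2241 and 2253. The members of each pair lay close together and the pairs did not overlap, yet the log2 difference of -0.29 ± 0.19 did not pass the test (adjusted p = 0.800).

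Levels per base of the annotated span were taken for the small RNA types and for Malat1, Neat1 and Vaultrc5 only. Other lncRNAs and the pseudogenes, such as the abundant Mrgpra6, are not in this order. The highest were Rn7sk at 1247 ± 68.1 normalised reads per base (SD over 4 libraries), Rmrp at 578 ± 48.2 and Rpph1 at 443 ± 47.4. The U1 RNA gene Rnu1a1 followed at 79.8 ± 12.2, then Scarna2, which guides modification of spliceosomal RNA, at 64.9 ± 8.02. Malat1 was at 30.1 ± 2.65 per base and Neat1 at 3.99 ± 0.405. Rmrp and Rpph1 did not overlap across the 4 libraries, whereas Rnu1a1 (64.2 to 93.8 per base) and Scarna2 (56.2 to 74.3 per base) did. The list of structured small RNAs held 23 genes, of which 16 had a mean of at least 100. In 1 gene both libraries labelled Ythdf1 KO lay above both WT libraries and in 4 both lay below (13.2% and 19.2% of all genes), and the median log2 difference was -0.09, against -0.09 over all genes tested. Scarna2 was among the 4 below, at 4173 and 4531 against 3704 and 3430.3. Rnu12 of the minor spliceosome (261 and 271 against 246 and 113), the spliceosomal RNA gene Rnu5g (261 and 189.8 against 84.3 and 116) and Scarna10 (223 and 312 against 202 and 65.3) were the others. Terc, the template RNA of telomerase, was at 329 and 134 against 181 and 146, and the vault RNA Vaultrc5 at 3172 and 1971 against 2203 and 2051, both with overlapping groups.

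**Figure D1:**
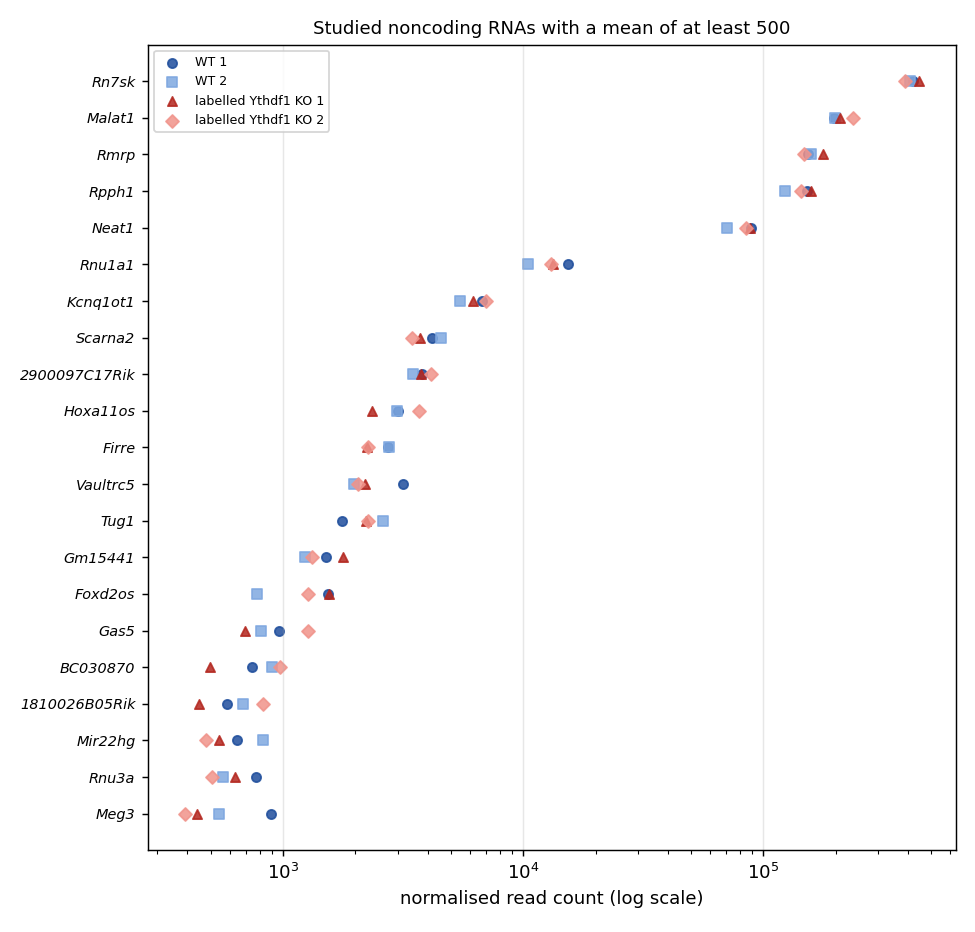
Normalised read count in each library (log scale) for the noncoding RNAs of the fixed lists with a mean of at least 500, ordered by mean. Each marker is 1 library. The 4 libraries lie close together for Rn7sk, Malat1, Rmrp, Rpph1 and Neat1. Malat1 is higher in both libraries labelled Ythdf1 KO than in both WT libraries. Scarna2, Firre, Mir22hg and Meg3 are lower in both libraries labelled Ythdf1 KO than in both WT libraries.

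The listed snoRNA host genes were low in these cells apart from Gas5, and none passed the test between the labels. The list leaves out host genes that code for protein and some noncoding ones. Of the latter, 1110038B12Rik, which holds Snord52, was at 411 and 584 in WT against 865 and 526, with overlapping groups. All 16 hosts of the list were tested, and their median log2 difference was 0.43, against -0.09 over all genes tested. The pair labelled Ythdf1 KO lay above both WT libraries in 3 hosts (13.2% of all genes) and below them in 2 (19.2% of all genes). Gas5, a host of many box C/D snoRNAs whose start is shown above, stood at 961 and 812 in the WT libraries and 698 and 1275 in those labelled Ythdf1 KO. Both WT libraries lay between the other two. Snhg18 was at 179 and 285 against 592 and 325, without overlap, with a log2 difference of 0.95 ± 0.55 (adjusted p = 0.778). That difference was 0.52 without Ythdf1 KO 1, 0.62 without WT 1 and 1.39 without Ythdf1 KO 2. Snhg8, with its pyrimidine run at the start, was at 118 and 126 against 305 and 139, with 1 of the libraries labelled Ythdf1 KO close to the WT pair. Snhg4 lay below, at 276 and 179.7 against 168 and 55.4.

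Snhg1 (173 to 246 over the 4 libraries), Snhg5 (139 to 243), Snhg15 (123 to 208) and Dancr (69.8 to 227) had overlapping groups. The lowest hosts were listed at 0 in some libraries, so their order carries little. Snhg3 was at 117 and 0 in WT and 47.5 and 87.7 in the other pair, Snhg6 at 0 and 83.8 and 7.76 and 33.9, and Snhg9 at 86.8 and 8.08 and 0 and 0. Of the hosts whose start holds a pyrimidine run, Gas5, Snhg1, Snhg5, Snhg12 and Snhg17 had overlapping groups, while Snhg18, Snhg8 and Snhg7 were the 3 that lay above.

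Of the 51 snoRNA genes, 47 lay inside another listed gene on the same strand, 32 of them inside a protein-coding gene and 15 inside a noncoding one. The most abundant were Snora73b at 1929.7 and 3101 against 2784 and 2282 and Snora73a at 1301 and 1570.0 against 1191 and 1468. Both are box H/ACA RNAs known for work in ribosomal RNA processing and both lie inside Snhg3. Their groups overlapped, and WT 2, which held no read of the Snhg3 transcript, held the highest count of both. Snora74a inside Snhg4 was at 998 and 1087 against 1501 and 744, while its host was at 276 and 179.7 against 168 and 55.4. Snord17, inside the sorting nexin gene Snx5, was at 1027 and 1101 against 2160.0 and 1274, above both WT libraries (log2 difference 0.64 ± 0.32, limma-trend, unadjusted p = 0.0922, adjusted p = 0.759). It was 0.26 without Ythdf1 KO 1 and 1.02 without Ythdf1 KO 2. The other 47 snoRNAs had lower means, and 6 of the 51 reached a mean of 100. The counts do not say whether a read came from a spliced host, an intron or a released snoRNA.

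**Figure D2:**
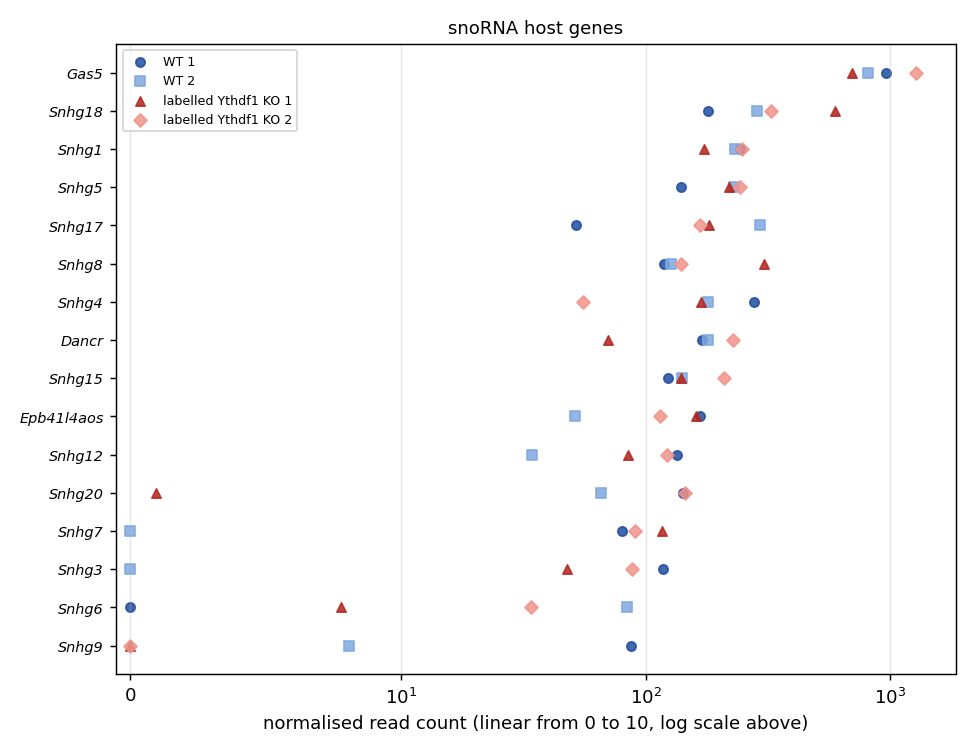
Normalised read count of the 16 listed snoRNA host genes in each library, on an axis that is linear from 0 to 10 and logarithmic above. Each marker is 1 library. Gas5 is the highest, and Snhg7, Snhg3, Snhg6 and Snhg9 each have at least 1 library at 0.

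The imprinted RNA Kcnq1ot1, a long antisense transcript that silences neighbouring genes on the paternal chromosome, was the tenth most abundant noncoding gene. It stood at 6763 and 5460.0 in WT and 6168 and 6997 in the pair labelled Ythdf1 KO, with overlapping groups. It overlaps Kcnq1 on the other strand, and the use of strand in counting was not given in the sources used here. Airn, which silences the Igf2r cluster, was at 342 and 293 against 195 and 365, Peg13 at 372 and 428 against 252 and 387, and Rian at 365 and 189 against 328 and 261. Only Meg3 of the 8 listed imprinted RNAs had groups that did not overlap, at 889 and 542 against 438 and 390.4 (log2 difference -0.75 ± 0.41, adjusted p = 0.762). Without WT 1 the Meg3 difference was -0.39, and without WT 2 it was -1.10. Rian comes from the same imprinted region as Meg3, and its values overlapped. H19 was at 0 and 49.5 against 69.8 and 0.

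RNAs of the X-inactivation centre were low. Xist, which coats the inactive X chromosome, was at 3.38 and 163 in the WT libraries and 95.01 and 103 in the pair labelled Ythdf1 KO, so WT 1 stood apart from the other three. Its antisense partner Tsix was at 16.9 and 54.5 against 62.05 and 0. Ftx, an activator of Xist, was the highest of the list at 292 and 544 against 205 and 44.7 (log2 difference -2.04 ± 0.88, limma-trend, unadjusted p = 0.0589, adjusted p = 0.759). Ftx has 2 listed transcripts, and its difference was -0.72 when they were summed, -0.96 without Ythdf1 KO 2 and -3.13 without Ythdf1 KO 1. Jpx was at 118 and 12.1 against 179 and 33.1. 5530601H04Rik, of the same region, lay above at 54.1 and 2.02 against 159 and 132. Of the 5 listed genes, 1 lay above and 1 below (13.2% and 19.2% of all genes), none passed the test, and the median log2 difference was 0.99, against -0.09 over all genes tested.

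Noncoding RNAs of the Hoxa cluster, which marks the distal gut, were mostly present in all libraries, and 1 of them stood apart. Hoxaas3, transcribed from chr6:52201124-52213597 (mm10, plus strand) opposite Hoxa3, Hoxa5 and Hoxa6, was at 422 and 444 in the WT libraries and 112 and 86.03 in those labelled Ythdf1 KO. The ratio of group means was 0.229 and the log2 difference -2.13 ± 0.58 (unadjusted p = 0.00914, adjusted p = 0.759 with limma-trend), while the authors' deposited table gave it q = 0.00183. The other noncoding genes of the cluster had overlapping groups. Hoxa11os was at 3017 and 2989 against 2359 and 3681, and Hottip, an RNA from the far end of the cluster, at 629 and 351 against 458 and 402. Hoxaas2 was at 196 and 121 against 163 and 225 and Mira at 148 and 307 against 120.2 and 203. The genes on the other strand of Hoxaas3 overlapped between groups too: Hoxa5 was at 846 and 764 against 324 and 1107, and Hoxa6 at 205 and 287 against 343 and 160. Hoxa13 at the far end lay above, at 562 and 518 against 621 and 2084. Mir196b, whose seed is shown above, was at 81.2 and 96.9 against 2.91 and 151, so its 2 libraries labelled Ythdf1 KO were the lowest and the highest of the 4. Mir196a-1, which carries the same seed in the Hoxb cluster, was at 33.8 and 102 against 55.3 and 44.7.

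**Figure D3:**
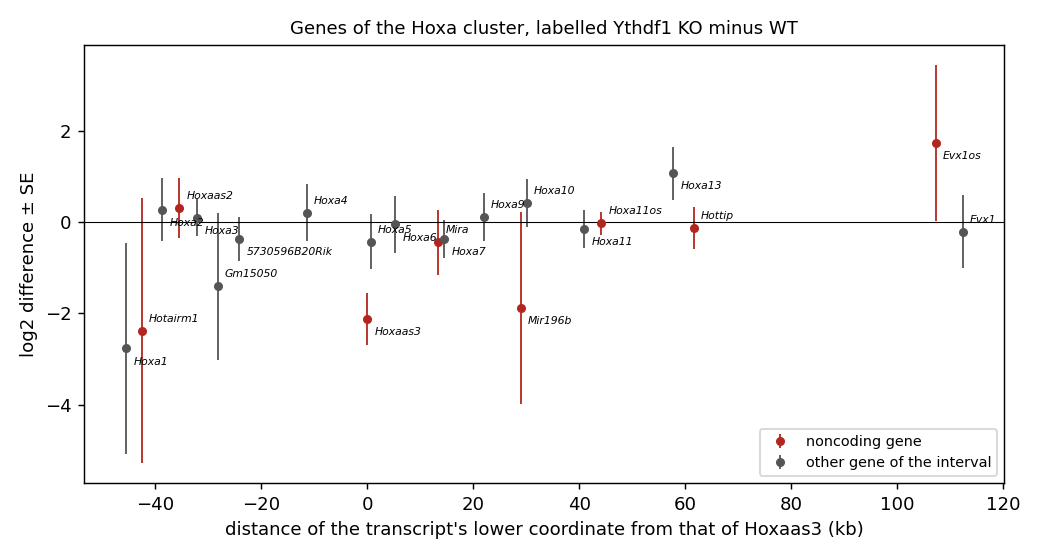
Log2 difference (labelled Ythdf1 KO minus WT) with its standard error for the tested genes of the Hoxa cluster, by distance in kb from Hoxaas3. Red points are noncoding genes of the set, grey points the other genes of the interval. Hoxaas3 lies at -2.13, and the intervals of ± 1 SE of most neighbours include 0.

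The list of Hox and developmental lncRNAs held 23 genes, of which 20 were tested, 0 lay above and 2 below (13.2% and 19.2% of all genes). The second of those 2 was Sox2ot, which surrounds the stem cell gene Sox2, at 265 and 159 against 8.73 and 0 (authors' deposited q = 0.00584, limma-trend adjusted p = 0.759). Its fitted log2 difference of -6.05 ± 2.30 depends on the added 1, since 1 library was at 0. Foxd2os, divergent from a forkhead gene, was at 1548 and 777 against 1551 and 1272, with overlapping groups. The values of Hnf4aos, antisense to a regulator of gut epithelium, were 33.8 and 212 against 102 and 117.

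Among the miRNA hosts, 3 of 9 lay below and 0 above (19.2% and 13.2% of all genes). Mir22hg, which carries miR-22, was at 647 and 829 against 545 and 479.8, Mir17hg of the miR-17 to miR-92 cluster at 46.2 and 106 against 21.3 and 13.2, and Carmn, a smooth muscle RNA that carries miR-143 and miR-145, at 106 and 31.3 against 0.969 and 19.02. Dleu2, which carries miR-15a and miR-16, was at 180.3 and 94.9 against 164 and 99.3. The stroma marker sum for Carmn's cell types is given above, and its part in this result was not tested. Of the 132 miRNA hairpins, 82 lay inside another listed gene on the same strand, 72 of them inside a protein-coding one, and 3 of the 132 reached a mean of 100. Mir27a was at 0 and 0 in WT against 72.7 and 98.4, at least 26.7-fold higher against a floor of 3 reads per library averaged over the group (authors' deposited q = 0.0168). It passed the filter through the libraries labelled Ythdf1 KO alone, so this fold describes its values and is no support for a difference. Mir24-2 of the same cluster was at 0 and 68.7 against 67.9 and 67.8, with overlapping groups. Mir126a, inside the endothelial gene Egfl7, was at 92.4 and 176 against 62.05 and 0.827.

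The remaining studied lncRNAs mostly overlapped between groups. NORAD, listed as 2900097C17Rik, binds Pumilio proteins and was at 3809 and 3467 against 3758 and 4125. Tug1 was at 1759 and 2599 against 2210.4 and 2251. Chaserr, listed as 1810026B05Rik and next to the chromatin remodeller gene Chd2, was at 587 and 679 against 449 and 830.5, and Gm15441, opposite Txnip, at 1516 and 1234 against 1782 and 1320.2. Of the 14 genes of that list, 4 lay below both WT libraries and 0 above (19.2% and 13.2% of all genes). They were Pvt1, which neighbours Myc (47.3 and 105 against 29.1 and 42.2), Crnde, named for its rise in colorectal tumours (122 and 39.4 against 0 and 1.65), 2310001H17Rik (219.8 and 119 against 49.4 and 91.8) and Meg3, which is on both lists. Of 7 immune and stress lncRNAs, 2 lay below and 0 above (19.2% and 13.2% of all genes). Lncpint, a p53 target, lay below at 287 and 214 against 169.7 and 99.3, and so did Ptgs2os at 30.4 and 40.4 against 0 and 0. AW112010, which is induced in immune and inflamed cells, was at 485 and 444 against 353 and 479.8, with overlapping groups.

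Over all noncoding genes, more lay below than above in the pair labelled Ythdf1 KO, and no gene passed the test. Of the 1779 genes, 1443 reached a value of 1 in 2 or more libraries and were tested with limma-trend among 23116 genes. At a Benjamini-Hochberg adjusted p under 0.05, 0 noncoding genes were called (0% of all genes tested), and the smallest adjusted p was 0.759. At an unadjusted p under 0.05, 18 were higher and 75 lower (1.92% and 3.52% of all genes tested). The edgeR quasi-likelihood test on recovered reads also called 0, with 11 higher and 53 lower at an unadjusted p under 0.05 (2.04% and 2.55% of all genes tested). DESeq2 called 23 higher and 102 lower (1.78% and 4.44% of all genes tested), and limma without a trend called 20 higher and 55 lower (0.489% and 2.25%). Without the library labelled Ythdf1 KO 1, limma-trend called 1 gene, Mrgpra6, which was lower (0.0412% of all genes tested then were called higher and 0.124% lower). The authors' deposited table gave q under 0.05 to 15 noncoding genes that were higher and 84 that were lower (1.24% and 3.23% of all genes).

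Both libraries labelled Ythdf1 KO lay above both WT libraries in 139 noncoding genes and below in 372 of 1779, where 13.2% of all genes lay above and 19.2% below. The median log2 difference was -0.33 over the tested noncoding genes and -0.09 over all genes tested. Leaving out WT 1 moved the first value to -0.57 and leaving out WT 2 to -0.66, while it was -0.18 and -0.086 when the libraries labelled Ythdf1 KO 1 and Ythdf1 KO 2 were left out in turn. After quantile normalization 236 lay above and 258 below, where 15.4% and 16.2% of all genes did. The median was then 0.04, so the direction of the shift depends on the scaling. Among the 402 noncoding genes with a mean of at least 100, 37 lay above and 109 below, against 17.7% and 17.2% of all genes at that level. Quantile normalization left that split at 49 above and 89 below, with 17% of all genes at that level on either side. The leukocyte marker sum was also lower in both libraries labelled Ythdf1 KO, and its part in these counts was not tested. Ptprc alone gave 666 of the 1417 in WT 1. Only Ptprc, Lyz2 and Adgre1 lay below in both libraries labelled Ythdf1 KO, while Cd3e, Cd3g, Cd79a, Jchain, Itgam and Csf1r overlapped.

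The next 5 abundant genes that lay below were taken from those lower with the smallest p, and none is on the fixed lists. They are pseudogenes and lncRNAs, types that held 194 and 1369 of the 1779 members. Scarna2, Firre, Mir22hg and Meg3 of the lists, given above, also lay below at a mean of at least 500. Mrgpra6, a transcribed pseudogene of the Mas-related receptor family on chromosome 7, stood at 73651 and 82539 in WT and 55301 and 44667 in the pair labelled Ythdf1 KO, the sixth most abundant noncoding gene. The pairs did not overlap, and the log2 difference was -0.65 ± 0.13 (limma-trend, unadjusted p = 0.00207, adjusted p = 0.759, authors' deposited q = 0.000437). The lncRNA 4930470H14Rik was at 10836 and 12802 against 8273 and 8152 (log2 difference -0.52 ± 0.14), and the olfactory receptor pseudogene Olfr856-ps1 at 9253 and 10829 against 6891 and 7669 (-0.46 ± 0.15). Gm17644 was at 4892 and 5783 against 3273 and 3529.5 (-0.65 ± 0.18) and Gm10845 at 1388 and 1122 against 669.9 and 588 (-0.99 ± 0.30). For these 5 genes each library of one label was below each library of the other, by ratios of group means of 0.640, 0.695, 0.725, 0.637 and 0.501 in the same order. The assignment of reads that a pseudogene shares with related genes was not given either.

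Further genes with q under 0.05 in the authors' deposited table and a mean of at least 100 showed larger differences at lower levels. 9630028B13Rik was at 423 and 544 against 144 and 50.5 (log2 difference -2.47 ± 0.72), and Gm38416 at 435 and 198 against 49.4 and 44.7 (-2.62 ± 0.84). Rab10os, antisense to Rab10, was at 238 and 635 against 84.3 and 110.0 (-2.001 ± 0.71), and 1700008J07Rik at 657 and 563 against 294 and 216 (-1.27 ± 0.44). Clcf1-pold4, a read-through transcript across 2 coding genes, was at 528 and 265 against 40.7 and 122 (-2.39 ± 0.83). It overlaps both coding genes, Clcf1 and Pold4, on the same strand, and its reads cannot be told apart from theirs. The Rab10os difference was -1.30 without WT 2 and -2.71 without WT 1, and that of Clcf1-pold4 was -1.61 without Ythdf1 KO 1 and -3.17 without Ythdf1 KO 2. None of these 5 passed the limma-trend test, with an adjusted p of 0.759 for each. Gm10069 had 199.5 and 282 in WT and 1 read in each library labelled Ythdf1 KO. 4931402G19Rik was at 206 and 211 in WT, with no read under the Ythdf1 KO label, at least 77.4-fold lower against the same floor of 3 reads. It passed the filter through the WT libraries alone, so this fold describes its values only.

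Fewer abundant noncoding genes lay above than below. AI854703, a transcribed pseudogene on chromosome 6, was at 774 and 852 in WT and 1272 and 2704 in the pair labelled Ythdf1 KO. It was the 1 gene with a mean of at least 100 among the 15 that the authors' deposited table called higher (q = 0.0147), and its log2 difference was 1.19 ± 0.40 (limma-trend, unadjusted p = 0.0230, adjusted p = 0.759). Without Ythdf1 KO 2 that difference was 0.65, and without Ythdf1 KO 1 it was 1.73. The 2 libraries labelled Ythdf1 KO differed from each other by more than the lower of them differed from the WT pair. Pisd-ps1, a pseudogene of phosphatidylserine decarboxylase, was at 2311 and 3441 against 6343 and 3563 (0.75 ± 0.33), and 4933421O10Rik at 136 and 110.0 against 288 and 401 (1.46 ± 0.59). For Pisd-ps1 the difference was 0.34 without Ythdf1 KO 1, 0.47 without WT 1 and 1.17 without Ythdf1 KO 2.

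The other genes called higher in the authors' deposited table were low and mostly absent from WT. Of the 15, 12 were at 0 in both WT libraries. Gm15133 was at 0 and 0 against 113 and 132, at least 38.2-fold higher by the floor above, Gm20139 at 0 and 0 against 103 and 113, and Gm1943 at 1.13 and 0 against 158 and 142. Gm15133 and Gm20139 passed the filter through the libraries labelled Ythdf1 KO alone, so the fold describes values only. Of the 84 called lower, 17 had a mean of at least 100, 42 were at 0 in both libraries labelled Ythdf1 KO, and 69 had at most 3 reads in each of them.

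**Figure D4:**
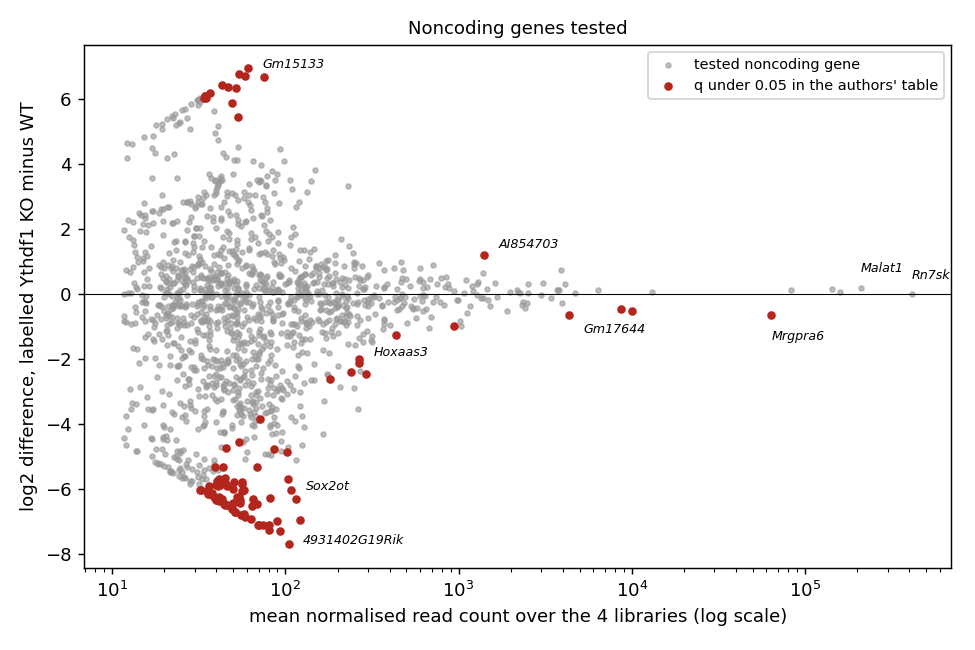
Log2 difference (labelled Ythdf1 KO minus WT) against the mean normalised read count (log scale) of the 1443 noncoding genes tested. Red points have q under 0.05 in the authors' deposited table. Most red points lie at means under 100 and at the edges of the cloud, and Mrgpra6, Gm17644 and AI854703 are among the few at higher means.

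Counts of 0 differed between the labels over the whole set. Noncoding genes were at 0 in 25.5% and 25.7% of cases in the WT libraries and in 33.7% and 34.0% in those labelled Ythdf1 KO, although the latter were sequenced deeper. Protein-coding genes showed the same order, at 7.95% and 6.87% against 11.8% and 11.6%. At a mean of 25 to 50, 31.7% and 31.2% of noncoding genes were at 0 in WT and 39.5% and 43.1% in the other pair, beside 27.4% and 25.8% against 43.0% and 41.1% of coding genes. At a mean of 500 and over, no gene of either kind was at 0. Of the 1779 noncoding genes, 680 had reads in all 4 libraries. The 94 that had reads in both WT libraries and none in the other pair made up 5.28% of the set (2.49% of coding genes), and the 42 with the opposite pattern 2.36% (0.590% of coding genes). These shares compare sets of unlike level, since 402 of 1779 noncoding but 12539 of 18135 coding genes had a mean of at least 100. At that level 1 noncoding and 3 coding genes showed the first pattern, and 0 of either kind the opposite one. What part the counts of 0 play in the calls at low levels was not tested.

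The shares can be set beside those of coding genes of the same level, and the differences between them were not tested. At a mean under 25, 11.4% of noncoding genes lay below and 5.29% above, against 16.9% and 5.05% of coding genes. At a mean of 25 to 50, 21.8% of noncoding genes lay below in both libraries labelled Ythdf1 KO and 9.07% above, against 25.2% and 9.18% of coding genes. At a mean of 50 to 100 the shares were 26.2% and 8.09% for noncoding genes and 25.4% and 9.93% for coding genes. At a mean of 100 to 500 they were 27.6% and 9.29% for noncoding genes and 21.5% and 12.1% for coding genes. At 500 and over they were 25.6% and 8.89% of 90 noncoding genes and 12.6% and 22.9% of coding genes. By position, 1026 noncoding genes overlapped no coding gene, 565 overlapped one on the opposite strand only and 188 on the same strand. The median log2 differences of the tested genes in these classes were -0.38, -0.30 and -0.19.

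**Figure D5:**
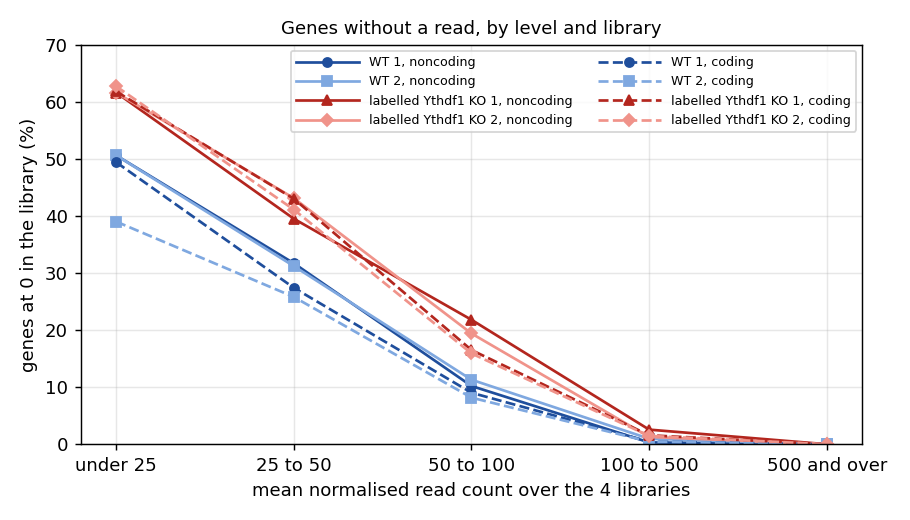
Percent of genes without a read in each library, by mean normalised read count over the 4 libraries. Solid lines are noncoding genes, dashed lines protein-coding genes, and each colour is 1 library. Both libraries labelled Ythdf1 KO lie above both WT libraries in every class under 500.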

How the data were processed

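RNA-seq inputs of 4 libraries (2 labelled WT, 2 labelled Ythdf1 KO) were analysed. Per the submitters' processing notes, the genome build was mm10 and the tools were deepTools 3.3.0, HOMER 4.10, MACS2 2.1.0, SAMtools 1.3.1, Bowtie2 2.2.5 and CASAVA 1.8, with no role stated. The counting program, its use of strand and the authors' test were not given in the sources used here. The authors deposited a normalised expression signal per transcript, beside the log2 fold change, q-value and p-value of their comparison. Dividing a library's values by its lowest nonzero value gave whole numbers for 100% of them (tolerance 0.001). In WT 2 that value is near 1 (1.01), so its step is less certain than the others, and tests on recovered reads are alternatives only. The lowest mean listed was 11.6.

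The most abundant transcript of every gene that reached 1 in 2 or more libraries was fitted as log2(value + 1) with robust limma-trend (limma 3.58.1, R 4.3.3). Benjamini-Hochberg adjustment was over 23116 genes. The fit was tried on simulated data in which all changed genes had means above 500. That trial does not cover lower levels, and 90 of the 1779 members had a mean of at least 500. Alternatives were edgeR 4.0.16, DESeq2 1.42.0, other pseudocounts, filters, normalization, summed transcripts, a replicate block and each library left out. Of 199 listed gene names, 106 were members. The members and lists were chosen with earlier results of these data known. Named genes are those on the lists, the 10 with the highest mean, the 10 with the smallest p in each direction at a mean of at least 100, and up to 10 per direction, by mean, with q under 0.05 in the authors' table. Listed genes with a mean under 100, hairpins and snoRNAs other than Mir27a and Snord17, and coding neighbours were added after their values were seen. The unlisted snoRNA host 1110038B12Rik was added in the same way. Libraries with the same replicate number did not deviate together, and whether they were prepared as pairs was not given in the sources used here. Floors cover counting error only.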

Additional observations from a re-analysis of the deposited data

How the results depend on the processing

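No noncoding gene was called with limma-trend, with edgeR, with a pseudocount of 0.5 or 5, with no filter, at a mean of at least 100, with quantile normalization, with summed transcripts or with a replicate block. DESeq2 called 125 and limma without a trend 75, and leaving out 1 library gave 0 to 1. The median log2 difference of -0.33 was -0.46 with no filter, -0.17 at a mean of at least 100 and 0.042 with quantile normalization, and lay between -0.66 and -0.086 when 1 library was left out, nearest to 0 without Ythdf1 KO 2 and farthest without WT 2. Genes above in both libraries labelled Ythdf1 KO, 139 of 1779, were 37 at a mean of at least 100 and 236 with quantile normalization, and 293 to 453 with 1 library left out. Genes below, 372, were 109 at a mean of at least 100, and 545 to 743 with 1 library left out, since 3 libraries separate more easily than 4. The filter of at least 1 in at least 2 libraries, chosen after seeing the data, gave 134 and 372. Of the 25 genes whose log2 differences are given, quantile normalization turned Rmrp to -0.068. With 1 library left out, Rmrp ranged from -0.081 to 0.19, Rn7sk from -0.084 to 0.10, Rpph1 from -0.011 to 0.29 and Neat1 from -0.046 to 0.28. The cause of these changes was not tested. Same-numbered libraries did not deviate together (correlation of same-numbered deviations -0.03 over tested noncoding genes), which cannot show whether they were prepared as pairs. With the replicate block, 36 noncoding genes were higher and 119 lower at an unadjusted limma-trend p under 0.05, against 18 and 75 without it. Of all genes tested, 2.26% were higher and 5.35% lower with the block. With 2 libraries per label and most noncoding genes at means under 100, counts of 0 and single-library values limit what the comparison can show.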

Other observations

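Some noncoding genes outside the rule for named genes, chosen after their values were seen, are given as values with no comparison drawn. Read-through transcripts, which join 2 neighbouring coding genes and are annotated as noncoding, were among the abundant ones. Dpm1-adnp, across Dpm1 and Adnp, was at 2963 and 2444 in WT and 2956 and 3874 under the Ythdf1 KO label, and Rnf8-cmtr1, across Rnf8 and Cmtr1, at 2173 and 2279 and 1934 and 2714. They overlap both coding genes on the same strand, and their reads cannot be told apart from those of the coding genes. Several transcribed pseudogenes were also well above the median. Btnl5-ps, of the butyrophilin-like family that acts on gut intraepithelial T cells, was at 3105 and 4269.6 and 5659 and 3543, and Tmem181b-ps at 1799 and 1615 and 1325 and 1903. Marcksl1-ps4 was at 1298 and 1404 and 937 and 505.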
